A study of Mus musculus with 25 samples.

Results

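A group of 9 genes of mouse chromosome 17 was examined: Mettl26 and the neighbours Mcrip2, Wdr90, Rhot2, Rhbdl1, Stub1, Jmjd8, Wdr24 and Fbxl16. They are 9 of the 23116 genes listed in a table of expression in hematopoietic stem cells with and without Znf143. Mettl26 was chosen because its FPKM (fragments relative to gene length and library total) fell more in the Znf143-deleted libraries than that of other well-measured genes, and the neighbours were chosen for lying near it, some of them with their levels known. The difference between the genotypes of these 9 genes is therefore given as a description, without a test. The genotypes were compared with limma on log2(FPKM + 0.1), with a Benjamini-Hochberg adjustment over the 19296 genes whose mean FPKM reached 0.1. This fit holds 7 of the 9 genes, and its p-values are given only for genes outside the 9.

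The study deleted Znf143, which encodes a zinc finger factor that binds promoters, to ask how it acts with CTCF on gene transcription. The RNA came from HSLAM cells, a stem cell fraction of adult C57BL/6 bone marrow gated as LSK+ CD150+ CD48-, of 3 Znf143 f/f x Rosa26ERT2-Cre- mice (Znf143 f/f) and 3 Znf143 f/f x Rosa26ERT2-Cre+ littermates (Znf143 -/-). Both genotypes carried loxP sites on either side of the first exon of Znf143 and received tamoxifen, and only the Znf143 -/- mice carried the Cre, whose Rosa26 locus is active in all tissues, so that effects of the active Cre and of the deletion cannot be told apart. The sample labels give the deleted genotype as a CTCF knockout. In the libraries so labelled it was Zfp143, the mouse symbol of Znf143, that was low, at 3.06, 4.03 and 3.63 FPKM in Znf143 f/f against 0.145, 0.303 and 0.326 FPKM in Znf143 -/- (log2 fold change -3.39, SE 0.278, adjusted p 0.00045 by limma, and -3.50 rescaled). Ctcf was at a mean of 29.9 ± 0.275 against 29.7 ± 2.27 FPKM (SD, n = 3 each, log2 fold change -0.01, adjusted p 0.968 by limma).

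The libraries held 38643255 to 57895793 fragments on genes. The FPKM of the third Znf143 -/- library had been computed with the total of the second, whereas its own was 1.20 times as large, and the median log2 fold change over all genes tested was 0.11 with the values as deposited and 0.01 after rescaling the libraries by median-of-ratios size factors. For the 9 genes, log2 fold changes are therefore also given after this rescaling. The stem cell markers Ly6a, Kit, Slamf1, Procr, Mecom, Hlf and Fgd5 were found in every library. Ly6a, a gene of the sorting gate, was higher in Znf143 -/- (217.7 to 287.3 FPKM against 560.9 to 664.0, adjusted p 0.00379 by limma), as were Cd48 and Flt3 of multipotent progenitors (summed FPKM 14.6 to 15.0 against 33.2 to 42.8). Of 4 neutrophil lineage markers, 3 were called higher (Elane, S100a8 and S100a9, summed FPKM of the list 38.2 to 69.7 against 117 to 132), though S100a9 not after rescaling (adjusted p 0.108 by limma), as was Dntt of early lymphoid cells (0 to 0.329 FPKM against 6.51 to 9.44), with Cd79a, Ebf1 and Il7r near 0. Mecom was called lower after rescaling only (log2 fold change -0.55, adjusted p 0.0208 by limma). The sums of 2 megakaryocyte markers were 366 to 496 against 532 to 795, of 3 erythroid markers 21.8 to 32.1 against 21.9 to 25.4, and of 2 T cell markers 0.0229 to 0.263 against 0.276 to 0.312. The part of these cell type differences in the values of the 9 genes was not tested, and in sorted bulk RNA fewer cells of a type and less RNA per cell cannot be told apart.

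Mettl26 belongs to the methyltransferase-like (METTL) proteins, a loose family of which several members methylate RNA or protein, and its own substrate is not well established. Its neighbours serve unrelated functions. Stub1, known as CHIP, is a ubiquitin ligase that acts with heat shock chaperones, Rhot2, known as Miro2, is a GTPase of the outer mitochondrial membrane, Wdr24 is part of the GATOR2 complex that signals amino acids to mTORC1, Wdr90 is a centriole protein, Mcrip2 is a MAPK-regulated corepressor interacting protein, Jmjd8 is a JmjC domain protein of the endoplasmic reticulum, Rhbdl1 is a rhomboid protease family protein, and Fbxl16 is an F-box protein. Such clusters of unrelated genes with close starts are common in mammalian genomes.

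By GENCODE release 21 for mouse on GRCm38, the 9 genes lie on chromosome 17 between 25809085, the start of Fbxl16, and 25877169, the end of Mettl26. Mettl26 (ENSMUSG00000025731.16, chr17:25875074-25877169) is at one edge, on the plus strand, and the starts of all the neighbours lie on the same side of it. The start of Mcrip2 is 6.3 kb away, on the minus strand, so that both genes are read away from each other. Wdr90, Rhot2, Rhbdl1 and Stub1, also on the minus strand, start 13.6, 30.2, 37.8 and 41.7 kb away. Jmjd8 (chr17:25828867-25831843), Wdr24 and Fbxl16, on the plus strand, start 46.2, 51.4 and 66.0 kb away. Jmjd8 and Stub1 run toward each other and share 1084 exon bases on opposite strands, 39.3% of the exon bases of Jmjd8 and 42.3% of those of Stub1. The library kit does not mark strand, and how fragments in shared bases were counted is not given in the sources used here. The levels of both genes are therefore uncertain, to an extent not known here. The shares are of GENCODE exon bases, which for Stub1 were 2561 against a deposited length of 1672. For Jmjd8 these were 2759 and 2758, and for Mettl26 1766 and 1109. Of the exon bases of Rhbdl1, 81.4% are shared with the predicted gene Gm20683 on the same strand, as are 29.4% of those of Rhot2.

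The promoters of the 2 genes with the lowest Znf143 -/- to Znf143 f/f ratio among the 7 in the fit are shown, as RefSeq sequence on GRCm38.p6. The upper one is the 250 bases before the RefSeq start of Mettl26 (chr17:25875250-25875499, plus strand), which in GENCODE lie inside the first exon of a longer transcript. The lower one spans the RefSeq start of Jmjd8 (chr17:25828793-25829048, plus strand), with 250 bases before that start and the rest of the match behind it. The GENCODE start of Jmjd8, 25828867, lies inside the bases shown. Capitals mark letters that resemble the known ZNF143 motif.
Mettl26: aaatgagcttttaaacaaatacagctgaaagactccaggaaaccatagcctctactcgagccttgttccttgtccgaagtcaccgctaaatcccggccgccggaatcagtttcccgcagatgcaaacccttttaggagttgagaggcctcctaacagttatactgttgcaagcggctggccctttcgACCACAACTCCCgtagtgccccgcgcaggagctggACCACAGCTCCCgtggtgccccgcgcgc
Jmjd8: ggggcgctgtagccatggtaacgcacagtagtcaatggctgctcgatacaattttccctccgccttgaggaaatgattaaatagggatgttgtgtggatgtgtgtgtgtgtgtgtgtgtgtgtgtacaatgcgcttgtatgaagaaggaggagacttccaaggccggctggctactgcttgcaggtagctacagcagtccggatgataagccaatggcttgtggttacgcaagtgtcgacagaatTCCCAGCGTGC

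The letters searched, on both strands of windows from 250 bases before to 50 bases after each start, were ACTACA, any 2 bases and TCCCA for the first part of the ZNF143 motif, TCCCAG, any 2 bases and TGC for the second part, which may overlap the first at TCCCA, and CCA, any 2 bases, AG, any base and GGGC for CTCF. They were found in 1.47%, 1.31% and 1.04% of 32851 RefSeq promoter windows. Among the 11046 genes tested that had a window, the shares were 3.67%, 2.41% and 1.48%. Of the 9 genes, 8 had a window. Jmjd8 held TCCCAGCGTGC once, from base 246, which runs across its RefSeq start, and the other 7 held none of these letters. With the looser letters AC, any base, ACA, any 2 bases and TCCC, chosen after the sequences had been seen and found in 2.07% of windows, Mettl26 had 2 matches on its own strand, ACCACAACTCCC from base 188 and ACCACAGCTCCC from base 223, which are 35 bases apart. Among the 11046 genes tested that had a window, 4.82% held these looser letters. A match is only a description of the letters. The study's list of genes strongly associated with ZNF143 was chosen in part on these libraries and is hence no independent evidence. Mettl26 (as 0610011F06Rik), Jmjd8 and Fbxl16 are on this list and the other 6 are not. Of all 19296 genes tested, 1398 are on it, and absence from it does not show that a gene lacks ZNF143.

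Mettl26 stood at 90.0, 83.5 and 79.2 FPKM in the 3 Znf143 f/f and at 5.36, 4.68 and 5.87 FPKM in the 3 Znf143 -/- libraries. The highest Znf143 -/- library was thus far below the lowest Znf143 f/f library, and each genotype varied little. The means were 84.2 ± 5.44 and 5.30 ± 0.599 (SD, n = 3 each), so that 6.30% of the Znf143 f/f level remained, a 15.9-fold difference. The log2 fold change was -3.97 (SE 0.152) as deposited and -4.08 after rescaling. Between 251 and 5006 fragments per library stood behind these values. Among all genes listed, Mettl26 was at rank 863 by mean level in Znf143 f/f and at rank 7105 in Znf143 -/-.

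Among 11636 genes at a mean FPKM of 1 or more that had 100 or more fragments in a library, 2 had a lower log2 fold change than Mettl26. These were the immunoglobulin light chain genes Igkv6-23 (FPKM 12.8, 0 and 12.2 in Znf143 f/f, 0 in each Znf143 -/- library) and Igkc (15.1, 0.243 and 14.3 against 0.0790, 0.194 and 0.233). Both were at or near 0 in the second Znf143 f/f library as well. The next after Mettl26 was Gm37490, with 2.90, 4.78 and 3.23 against 0.116, 0.171 and 0.257. Without the limit on fragments, the small RNA genes Mir28c and Mir146 also stood below Mettl26.

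Jmjd8 had an FPKM of 15.1, 9.33 and 12.7 in Znf143 f/f and 4.16, 4.36 and 4.54 in Znf143 -/-. The genotypes did not overlap, and the spread was wide in Znf143 f/f, where the second library was the lowest, and narrow in Znf143 -/-. The means were 12.4 ± 2.91 and 4.35 ± 0.191 (SD, n = 3 each), a 2.85-fold difference that left 35.1%. The log2 fold change was -1.46 (SE 0.202), -1.57 after rescaling and -1.65 without the second Znf143 f/f library. Fragments per library ranged from 546 to 1610. Jmjd8 was at rank 295 from the lowest of the 19296 log2 fold changes.

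Mcrip2, the nearest neighbour, had an FPKM of 68.1, 64.4 and 64.1 against 54.2, 49.9 and 59.7. All 3 Znf143 -/- libraries were below the lowest Znf143 f/f library, by a small margin next to that of Mettl26. The means were 65.6 ± 2.23 and 54.6 ± 4.94 (SD, n = 3 each), 83.2% of the Znf143 f/f level, with a log2 fold change of -0.27 (SE 0.137) as deposited and -0.38 after rescaling.

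For Stub1, Rhot2, Wdr24 and Wdr90, the genotypes overlapped. Stub1, the ubiquitin ligase, had an FPKM of 67.3, 61.0 and 63.3 against 62.3, 70.4 and 81.1, where the highest value belongs to the library with the misfit divisor. After rescaling, its log2 fold change was 0.04, against 0.15 as deposited (SE 0.148). Rhot2, the mitochondrial GTPase, was at 4.26, 3.12 and 3.91 against 3.49, 4.41 and 4.47, with a log2 fold change of 0.13 (0.02 rescaled). Wdr24 of the GATOR2 complex was at 8.07, 6.68 and 8.03 against 6.32, 8.41 and 8.82, with a log2 fold change of 0.04 (-0.07 rescaled). Wdr90, the centriole protein, was the lowest of the 7 in the fit, at 1.81, 1.46 and 1.68 against 1.21, 1.88 and 2.07, with a log2 fold change of 0.03 (-0.08 rescaled). The directions of Wdr24 and Wdr90 thus turned with the scaling.

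Fbxl16 and Rhbdl1 did not reach the mean FPKM of 0.1. Fbxl16 had 19, 1 and 16 fragments in Znf143 f/f and 3, 0 and 0 in Znf143 -/-, so that the second Znf143 f/f library lay within the range of the Znf143 -/- libraries. Rhbdl1 had 0, 6 and 0 fragments against 1, 9 and 9. For a gene of 1 kb, 3 fragments correspond to 0.0555 to 0.0777 FPKM, and with so few fragments a difference in Rhbdl1 could not be judged.

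In the fit across all genes, Mettl26 and Jmjd8 fell among the 1.58% of genes that were called lower as deposited and among the 2.99% called lower after rescaling. The comparison had already been used to choose them, so these calls are no test of the 9 genes. In 3 of the 7 genes in the fit, all Znf143 -/- libraries were below all Znf143 f/f libraries, beside 8.43% of all genes tested. None of the 7 was above in all libraries, beside 16.7% of all genes tested. Mettl26 was chosen for its fall, so these counts are no test either.

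**Figure D1:**
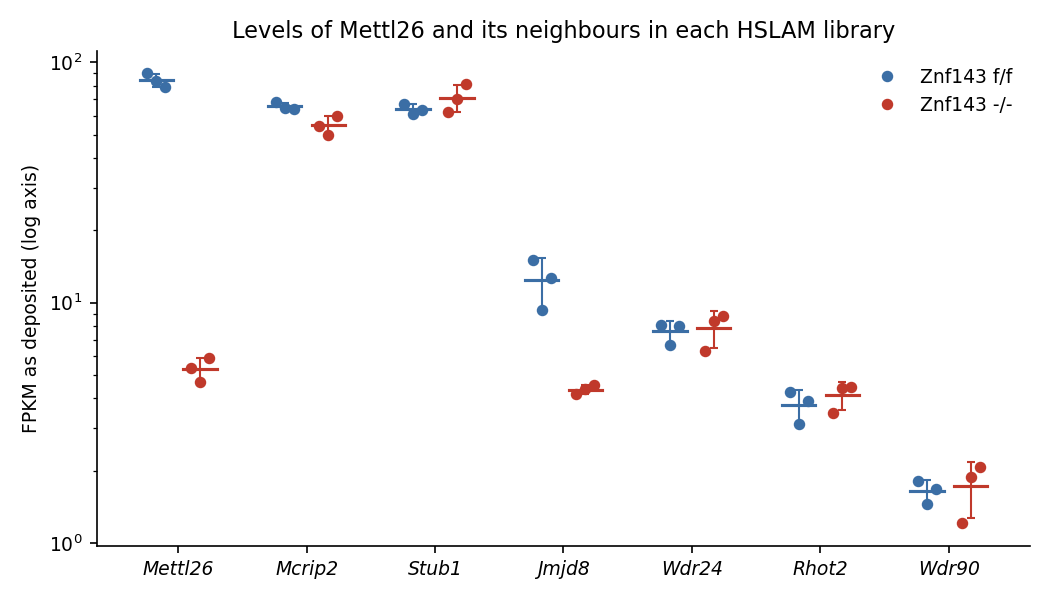
FPKM on a log axis of the 7 genes whose mean reached 0.1, in the order of their Znf143 f/f mean. Points are libraries in replicate order, horizontal lines are means and error bars are SD (n = 3). Mettl26 goes from 79.2 to 90.0 FPKM down to 4.68 to 5.87 and Jmjd8 from 9.33 to 15.1 down to 4.16 to 4.54, while Stub1, Wdr24, Rhot2 and Wdr90 overlap between genotypes.

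The order of levels changed between the genotypes. In Znf143 f/f, Mettl26 had the highest mean FPKM of the 9 genes, followed by Mcrip2 and Stub1, whose ranges overlapped with each other, then Jmjd8, Wdr24, Rhot2 and Wdr90, each apart from the next, and Fbxl16 and Rhbdl1, whose ranges overlapped. In Znf143 -/-, Stub1 was first, followed by Mcrip2 and Wdr24, and Mettl26 was the fourth, above Jmjd8 and Rhot2, whose ranges overlapped. Wdr90, Rhbdl1 and Fbxl16 closed the order.

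A ratio of 2 genes in the same library does not depend on its scaling. Mettl26 was 1.23 to 1.32 times as high as Mcrip2 in Znf143 f/f and 0.0938 to 0.0990 times as high in Znf143 -/-. Against Stub1 the ratio was 1.25 to 1.37 and 0.0665 to 0.0860, and against Rhot2 it was 20.3 to 26.7 and 1.06 to 1.54. Against Jmjd8, which was itself lower, it was 5.95 to 8.94 and 1.07 to 1.29. For Wdr24 and Wdr90 too, every Znf143 -/- library was below every Znf143 f/f library, at 0.556 to 0.849 against 9.86 to 12.5 and at 2.48 to 4.43 against 47.2 to 57.1.

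**Figure D2:**
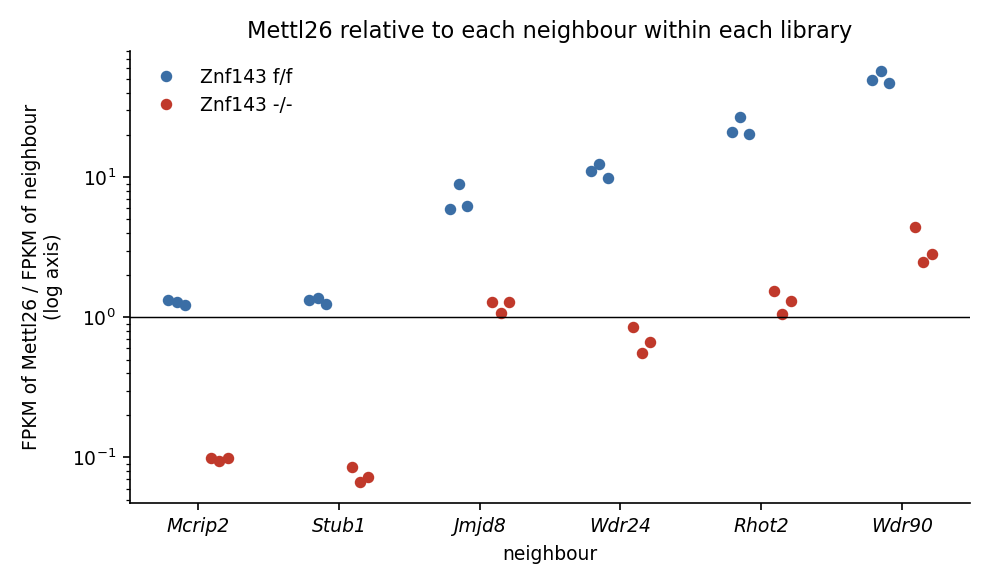
Ratio of the FPKM of Mettl26 to that of each of the 6 neighbours in the fit within a library, on a log axis. Each point is 1 library in replicate order, and the line marks a ratio of 1. The ratio to Mcrip2 is 1.23 to 1.32 in Znf143 f/f and 0.0938 to 0.0990 in Znf143 -/-, and the ratios to Jmjd8 lie closest together between the genotypes.

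Within a genotype, the libraries did not vary in the same order for all genes. In Znf143 f/f, Wdr90, Rhot2, Jmjd8 and Wdr24 had their lowest FPKM in the second library and Mettl26 and Mcrip2 in the third, both as deposited and after rescaling. In Znf143 -/-, which library was lowest or highest depended on the scaling for some of the 7 genes.

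The other genes around Mettl26 were then tested, to see how far from it expression differed. Within 1 Mb of its start, GENCODE lists 110 further genes, of which 60 were in the table and 54 were tested. Of these, 1 was called, Decr2, which was lower in Znf143 -/- (1.85% of the 54, beside 4.32% of all genes tested in either direction). None was called higher by limma (2.74% of all genes were), and 9 of the 54 had an unadjusted p under 0.05 (16.7%, beside 19.1% of all genes tested). With limma's voom on recovered fragments, Decr2 was again the only call. In 6 of the 54 genes (11.1%) all Znf143 -/- libraries were below the Znf143 f/f libraries, beside 8.43% of all genes tested, and in 8 (14.8%) all were above, beside 16.7%. The median log2 fold change of the 54 genes was 0.13 (0.02 rescaled), beside 0.11 (0.01 rescaled) of all genes tested.

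Decr2, a peroxisomal dienoyl-CoA reductase of fatty acid oxidation, starts 215.3 kb from Mettl26, on the side without the 8 neighbours. It stood at 15.5, 8.97 and 15.5 FPKM in Znf143 f/f and at 1.40, 1.00 and 1.20 FPKM in Znf143 -/-, without overlap and with the second Znf143 f/f library again the lowest. The means were 13.3 ± 3.78 and 1.20 ± 0.197 (SD, n = 3 each), with a log2 fold change of -3.34 (SE 0.252, adjusted p 0.000342 by limma) and of -3.44 after rescaling. Decr2 is also on the list of genes that the study associates with ZNF143, with Clcn7, Sox8 and Luc7l as the other non-neighbours on it within 1 Mb, which were not called (log2 fold changes 0.27, -0.23 and -0.10, adjusted p 0.645, 0.801 and 0.767 by limma). The promoter window of Decr2 held none of the letters searched.

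On the side of Mettl26 without the neighbours, Wfikkn1 starts 5.8 kb away and was low in both genotypes, with 7 to 29 fragments per library. Of genes at a mean FPKM of 1 or more outside the 9, the nearest are Rab40c and Pigq on this side, at 44.7 and 69.9 kb, and Metrn, Fam173a and Haghl beyond Fbxl16, at 77.9, 82.2 and 89.4 kb. None of these 5 was called. Rab40c, a Rab GTPase, had a mean of 7.61 ± 1.81 against 8.91 ± 2.46 FPKM (log2 fold change 0.21, adjusted p 0.702 by limma). Fam173a, a lysine methyltransferase, was the highest of the 5, with 136.5 ± 10.4 against 148.2 ± 19.4 FPKM (0.11, adjusted p 0.732 by limma). The log2 fold changes of Pigq, Metrn and Haghl were 0.25, 0.38 and 0.39, with adjusted p of 0.638, 0.293 and 0.190 by limma. Metrn and Haghl were higher in all 3 Znf143 -/- libraries than in any Znf143 f/f library.

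**Figure D3:**
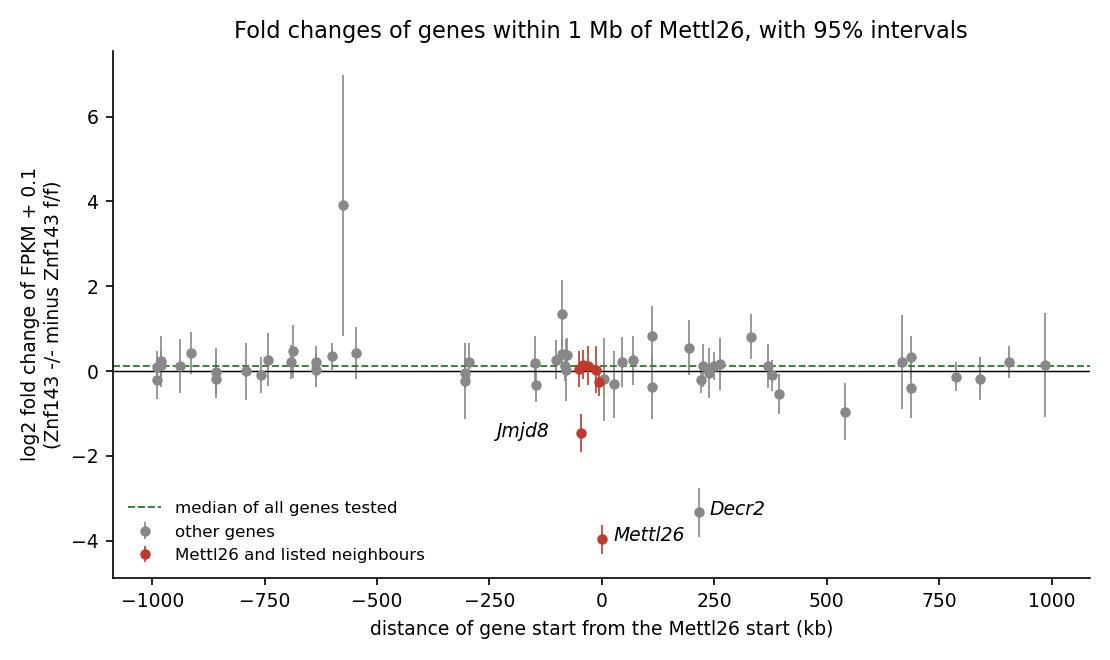
Log2 fold change of FPKM + 0.1 (Znf143 -/- minus Znf143 f/f) of the genes tested within 1 Mb of Mettl26, against the distance of their start from the Mettl26 start in kb. Bars are 95% intervals from limma (n = 3 per genotype), red marks Mettl26 and its neighbours, and the dashed line is the median of all genes tested, 0.11. Mettl26, Jmjd8 and Decr2 stand below the others, and the widest interval, at 576.7 kb to the left, belongs to Prss34 (adjusted p 0.161 by limma), named here after its value was seen.

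The other METTL family genes were tested for a shared change. Of 30 listed, 26 were in the table and 25 were tested, and none was called by limma, with 9 at an unadjusted p under 0.05 (36%, beside 19.1% of all genes tested) and none called with voom on recovered fragments. The log2 fold changes of the 25 ranged from -0.75 to 0.75 with a median of 0.27 (0.16 rescaled), and 22 were above 0 with either scaling, beside 62.0% of all genes tested as deposited and 50.7% after rescaling. In 10 genes (40%) all Znf143 -/- libraries were above the Znf143 f/f libraries, beside 16.7% of all genes tested, and in 1, Mettl24, all were below. The 4 with the highest Znf143 f/f level were Mettl7a1 (48.7 ± 2.58 against 55.3 ± 8.51 FPKM), Mettl5, a ribosomal RNA methyltransferase (21.9 ± 1.59 against 25.9 ± 4.06), Mettl23 (17.5 ± 1.49 against 28.5 ± 8.19) and Mettl9, a histidine methyltransferase (17.3 ± 0.679 against 23.9 ± 4.84). Their adjusted p were 0.591, 0.488, 0.155 and 0.226 by limma. In Znf143 f/f, the FPKM of Mettl26 was above that of each of the others. After rescaling, Etfbkmt was called higher (log2 fold change 0.41, adjusted p 0.0306 by limma, with 5.98% of all genes called in either direction). Without the first Znf143 -/- library 4 of the 25 were called higher, Etfbkmt, Mettl23, Mettl3 and Mettl9. In that setting 1128 of all 19265 genes tested were called higher.

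**Figure D4:**
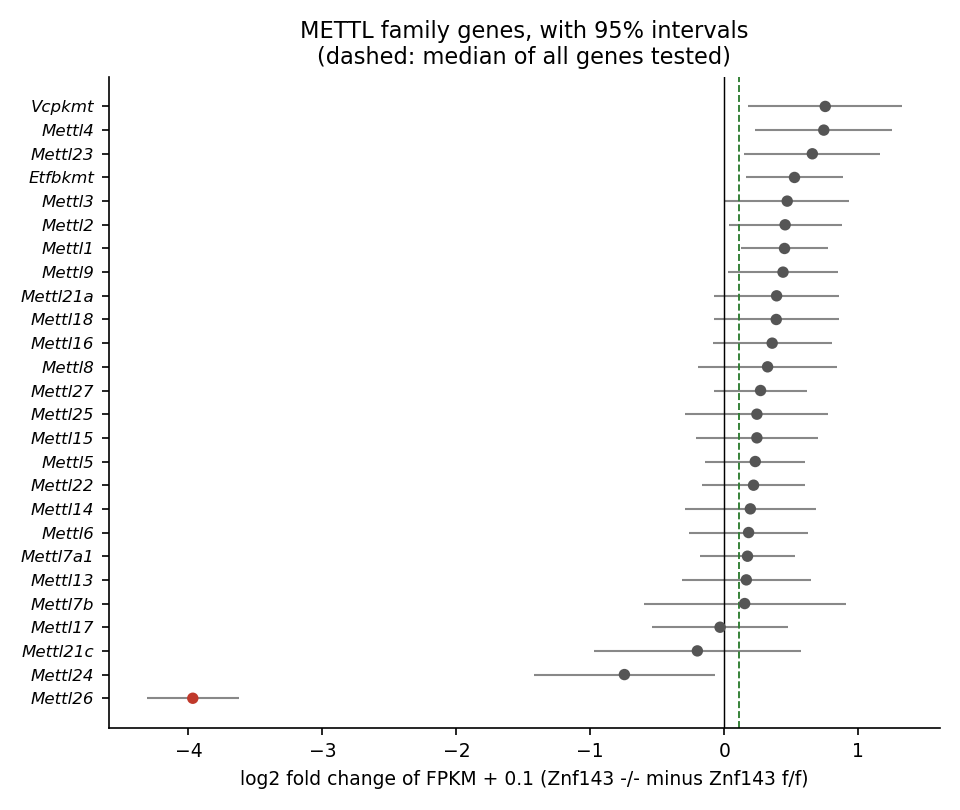
Log2 fold change of FPKM + 0.1 (Znf143 -/- minus Znf143 f/f) of Mettl26, in red, and of the 25 other METTL family genes tested, with 95% intervals from limma (n = 3 per genotype). Mettl26 is at -3.97 and the others lie between -0.75 and 0.75.

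Genes that work with the 9, as paralogs or as parts of the same complex, were tested as well. Of 43 listed, 41 were tested, 1 was called lower and 1 higher (4.88%, beside 4.32% of all genes tested), and the median log2 fold change was 0.21 (0.10 rescaled). Ube2d1, a ubiquitin-conjugating enzyme that serves Stub1 among many ligases, was at 8.18, 7.21 and 8.44 FPKM in Znf143 f/f and 1.47, 1.56 and 1.73 in Znf143 -/-. Its genotypes did not overlap (log2 fold change -2.25, SE 0.176, adjusted p 0.000344 by limma, and -2.36 rescaled). Its promoter window held both parts of the ZNF143 letters. Of 11046 genes tested that had a window, 3.67% held the first part and 2.41% the second. Dnajb1, a heat shock cochaperone, was at 89.1, 82.6 and 87.6 against 133.8, 119.6 and 143.2 FPKM (log2 fold change 0.61, adjusted p 0.0420 by limma, and 0.50 rescaled), a call lost in 8 of 16 alternatives, with adjusted p from 0.0212 to 0.187. The promoter windows of Dnajb1 held none of the letters searched. After rescaling, Hspa8, the constitutive heat shock chaperone, and Nprl2 of the GATOR1 complex were also called lower (log2 fold changes -0.41 and -0.89, adjusted p 0.0394 and 0.0262 by limma). Rescaling also raised the share of all genes called lower, from 1.58% to 2.99%.

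None of the 3 genes tested from Miro1 (Rhot1) and its Trak adaptors, the 8 rhomboid family genes, the 3 JmjC genes, the 3 centriole genes, the 7 genes of Skp1-cullin-F-box ligases, the 11 GATOR, Rag and amino acid sensor genes or the paralog Mcrip1 was called by limma as deposited. Mcrip1 was at 161.7 ± 10.7 against 161.0 ± 16.1 FPKM (SD, n = 3 each, log2 fold change -0.01, 95% interval -0.33 to 0.31, adjusted p 0.982 by limma), and -0.12 after rescaling. Skp1a and Rbx1 of the F-box ligases, the 2 highest genes of the whole list, were at 418 ± 18.7 against 474 ± 60.5 and 349 ± 19.4 against 368 ± 49.6 FPKM, with adjusted p of 0.569 and 0.845 by limma. Bag1, a chaperone cofactor, was at 184 ± 22.4 against 222 ± 29.1 FPKM (adjusted p 0.395 by limma).

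Over the 6 libraries, the genes of the whole table whose log2(FPKM + 0.1) followed that of Mettl26 most closely were Tfpi (Pearson r 0.9999), Dnajc18 (0.99938), Macrod1 (0.999), Tmub1 (0.99853) and Tmem98 (0.99841). The 6 points fall into the 2 genotypes, so that such an r mostly reflects the difference between them and the narrow spread within each. None of the 5 lies on chromosome 17. Macrod1, a mono-ADP-ribosyl hydrolase, was at 48.9, 45.2 and 46.5 against 8.74, 7.79 and 9.99 FPKM. Tfpi, the tissue factor pathway inhibitor, was at 3.37, 3.15 and 3.10 against 0.269, 0.246 and 0.310.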

How the data were processed

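The samples used were the 6 RNA-seq libraries of HSLAM cells, 3 Znf143 f/f and 3 Znf143 -/-, grouped by the labels. The other samples of the series were not analysed here. The authors aligned reads to GRCm38 with STAR, counted fragments per gene with FeatureCounts and deposited the FPKM of each library with the length of each gene. The strand setting and annotation of the counting are not given in the sources used here. The columns of the authors' own DESeq2 comparison (mean count, fold change and its error, test statistic and p-values) were not used.

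Fragments were recovered as FPKM times length, and 138677 of 138696 values (99.986%) were whole within 0.05. The test, on log2(FPKM + 0.1) of the deposited values, was that of limma 3.58.1 (lmFit, eBayes with a variance trend) in R 4.3.3, for genes whose mean FPKM reached 0.1, as the deposited unit is not counts. The adjusted p threshold was 0.05. Replicates are separate mice, and p-values measure the spread between them. Exons, coordinates and gene starts came from GENCODE release 21 for mouse, and promoters from RefSeq on GRCm38.p6. Python 3.11.15, pandas 2.3.3, numpy 2.4.6 and matplotlib 3.10.9 were used. The fit was tested on simulated data.

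The 9 genes and all lists were chosen with earlier results of these data known. Named were the 9 genes, Zfp143 and Ctcf, called genes within 1 Mb and the 5 nearest with a mean FPKM of at least 1, called genes of the METTL, partner and marker lists and up to 4 with the highest Znf143 f/f level, the 5 genes most correlated with Mettl26, and the 5 lowest log2 fold changes. Others are named after their values were seen: the genes called only under an alternative, Mettl24, Mcrip1, Clcn7, Sox8, Luc7l, Wfikkn1, Prss34 and Gm37490. Some genes of the marker lists are not reported here. Alternatives were pseudocounts of 0.01 and 1, other filters, rescaling, the third Znf143 -/- library on its own total, and voom on recovered fragments. Further ones were no variance trend, a replicate block, windows of 0.25 and 3 Mb, and each library left out.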

Additional observations from a re-analysis of the deposited data

How the results depend on the processing

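The study names 3 pairs of littermates, but which libraries form a pair is not given in the sources used here, and the main fit was unpaired. The correlation of deviations between libraries with the same replicate number was -0.096, -0.091 and 0.031. Only the third number had its highest correlation with itself. These values cannot show whether libraries of the same number came from the same litter. Over 16 alternatives, the log2 fold change of Mettl26 ranged from -4.08 to -3.76, the latter with a pseudocount of 1, of Jmjd8 from -1.65 to -1.30, of Mcrip2 from -0.38 (rescaled) to -0.20, of Stub1 from 0.04 to 0.24, of Rhot2 from 0.00 to 0.24, of Wdr24 from -0.07 to 0.19 and of Wdr90 from -0.11 to 0.25. Decr2 and Ube2d1 were called in each of 16 alternatives, with adjusted p by limma from 2.71e-05 to 0.0148 and from 4.75e-05 to 0.0148. Rpusd1 within 1 Mb was called lower after rescaling only (log2 fold change -0.45, adjusted p 0.0337 by limma, against 0.338 as deposited). The number of genes called over the whole table was 833 and ranged from 189, without the third Znf143 -/- library, to 1518, without the first. Leaving out the first, the second or the third Znf143 f/f library gave 528, 1441 and 393, and leaving out the second Znf143 -/- library gave 312. With the replicate block it was 864, and 191 with the replicate block and rescaling together. Within 1 Mb, 2 of 55 genes tested were called after rescaling (beside 5.98% of all genes tested). Without the variance trend 3 of 54 were called, beside 802 of 19296 genes tested. With the replicate block 2 of 54 were called (Decr2 and Prss34). With a library left out 1 to 4 were called, 4 without the second Znf143 f/f and 3 without the first Znf143 -/- library. In a window of 3 Mb, 6 of 149 genes tested were called (4.03%, beside 4.32% of all genes tested). In the METTL family, 1 gene was called after rescaling and 1 with the total of the third Znf143 -/- library corrected (Etfbkmt in both), and 0 to 4 with a library left out, 4 without the first Znf143 -/- library. Among paralogs and partners, 4 of 41 were called after rescaling (beside 5.98% of all genes tested). There was 1 call without the variance trend, 1 with the replicate block and 1 with the replicate block and rescaling together. With a library left out 1 to 4 were called, 4 without the first Znf143 -/- library and 1 without each other library. The log2 fold change of Zfp143 was called in each of 16 alternatives and ranged from -3.94 with voom to -1.86 with a pseudocount of 1, and from -3.54 to -3.14 with a library left out. The causes of these shifts were not tested. With 3 mice per genotype and at most 19 fragments per library, Fbxl16 and Rhbdl1 were too low for a difference to be judged.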
